A study of Penaeus vannamei with 6 samples.

Results

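The 100 most abundant gill transcripts of juvenile whiteleg shrimp (Penaeus vannamei, listed in the study's title as Litopenaeus vannamei) are described here across the salinities in which the animals were cultured. They are 100 of 341828 transcripts of a de novo assembly. They were chosen by level, as those whose mean over 6 libraries reached 1000 RPKM, that is reads scaled to the length of the transcript in kilobases and to the depth of the library. Of 110 transcripts at that level, 10 were left out by the same rule because their lower brackish water library was at least 2 times the highest fresh water or seawater library. The groups were gill from fresh water culture (2 libraries), brackish water culture (2 libraries) and seawater culture (2 libraries), all from juveniles, with no further treatment named in the labels. The study's design speaks of triplicates, and 2 libraries per group were analysed here. The labels give no salinity values, no time spent at each salinity and no number of animals per library. They do not say either whether the 2 libraries of a group are separate animals or cultures. Every p-value below thus rests on a spread between libraries that may be technical. In limma that spread is estimated mostly from other transcripts, as described under the processing.

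The gill is the main surface on which a shrimp exchanges ions and respiratory gases with the water, and in dilute water it takes up salt against a gradient. At the top of an animal tissue's abundance list commonly stand messages for respiratory chain subunits, ribosomal proteins, the cytoskeleton and a few products that the tissue makes in bulk. The files pair the assembly IDs with no gene names, and 0 IDs matched the RefSeq gene table for the species (assembly ASM4276789v1), so no gene name, role or sequence is given to any member, and the gill label was not checked against marker genes. An ID has a component (comp250031_c0) and a form of it (seq12), and forms of a component share sequence, so reads between them may be divided unevenly.

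The values that chose the members are a description. The transcripts just inside the level threshold, comp249250_c0_seq2 and comp232766_c0_seq2, averaged 1005 and 1007 RPKM. Those just outside it, comp246375_c3_seq15 and comp225828_c0_seq1, averaged 999.9 and 989 RPKM. For the brackish criterion, the lower brackish library over the highest other library was 1.05 for comp249721_c2_seq14 and 1.04 for comp249721_c2_seq3, the members nearest to it. The nearest transcripts left out, comp248394_c6_seq3 and comp246046_c1_seq5, had ratios of 3.23 and 3.33.

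Depth was 30152208 and 23195528 reads in the fresh water libraries, 37027007 and 35347475 in the brackish water libraries and 16500257 and 33130083 in the seawater libraries, recovered as whole reads from the RPKM values. A member had a median of 32256 reads in a library, and 91 members had at least 1000 reads in all 6, so counting error is small against the spread between libraries for these. The fewest reads of a member in a library were 4. The libraries stood apart in breadth: 207274 and 213853 transcripts had reads in fresh water, 203824 and 61478 in brackish water, and 55464 and 72650 in seawater. Brackish water library 2 thus lay with seawater and brackish water library 1 with fresh water in this respect, and the part this played in the results below was not tested.

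The members came from 91 components, of which 83 gave 1 member, 7 gave 2 and 1 gave 3. Their lengths ran from 213 to 7704 bases with a median of 771 bases, against a median of 1336 bases over the 25901 transcripts that averaged at least 1 RPKM and were tested. Members shorter than 500 bases numbered 23, against 17.0% of the tested transcripts, and 15 members reached 2000 bases, against 33.7%. Length enters RPKM as a divisor, so this difference is a description and not independent of the rule. A member took a median of 96.3% of the reads of its component. In 55 members that share was at least 90%, in 17 it was under 50%, and 31 members were the only form of their component.

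Together the members took 24.9% and 18.4% of the reads in fresh water, 20.3% and 33.6% in brackish water, and 30.4% and 28.3% in seawater. The 95% Wilson intervals of these shares were at most 0.0444 percentage points wide, which covers counting error only. By group the share was 21.7% ± 4.56 in fresh water, 26.9% ± 9.43 in brackish water and 29.3% ± 1.44 in seawater (SD, n = 2 each). Both fresh water libraries lay below both seawater libraries, while the brackish water libraries lay apart, one near fresh water and the other above seawater. With 2 libraries against 2, an exact permutation test cannot pass 0.05, and none was run. In bulk tissue, fewer cells of a type and less RNA per cell cannot be told apart in such shares. The 10 members of highest mean alone held 9.32% and 5.32% in fresh water, 9.84% and 22.3% in brackish water, and 13.4% and 11.1% in seawater. The other 90 members held a narrower range, 15.6% and 13.1% in fresh water, 10.4% and 11.3% in brackish water, and 17.0% and 17.2% in seawater.

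**Figure D1:**
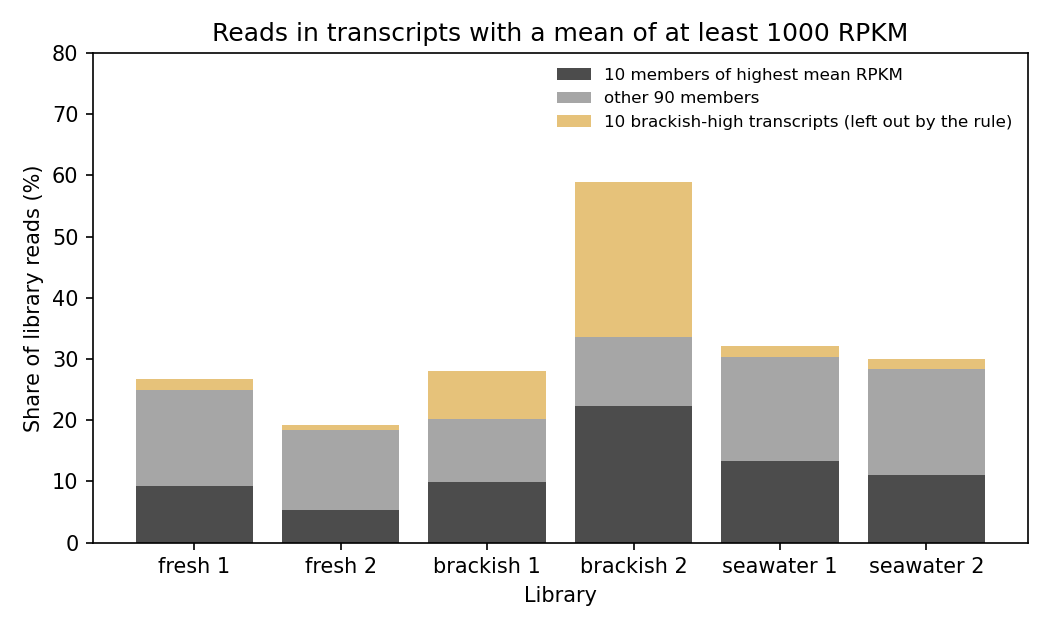
Share of each library's reads (%, from 0) in the 10 members of highest mean RPKM, in the other 90 members, and in the 10 brackish-high transcripts left out by the rule, stacked for the 2 fresh water, 2 brackish water and 2 seawater libraries. The members' share ran from 18.4% in fresh water library 2 to 33.6% in brackish water library 2, and the left-out transcripts added 25.2% in brackish water library 2.

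Among the members, mean RPKM ran from 1005 to 7913 with a median of 1474, and 12 members averaged at least 3000 RPKM. The most abundant, comp232913_c0_seq6 (1449 bases), stood at 8100 and 6684 RPKM in fresh water, 4141 and 10683 in brackish water, and 3214 and 14657 in seawater. The seawater libraries of this member differed by more than the fresh water and seawater groups did, so no order of the groups can be read from it. Next came comp249721_c2_seq6 (2996 bases), with 1997 and 701 RPKM in fresh water, 7279 and 24309 in brackish water, and 8045 and 1399 in seawater. It was highest in brackish water library 2, and seawater library 1 was above brackish water library 1. The third, comp250031_c0_seq12 (5263 bases), had 4770 and 0.623 RPKM in fresh water, 2903 and 6709 in brackish water, and 11982 and 5921 in seawater. It was also the member with the largest share of the reads in seawater, 6.31% and 3.12%.

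The short form comp222591_c0_seq2 (271 bases) had 5764 and 3471 RPKM in fresh water, 3386 and 2626 in brackish water, and 2884 and 9057 in seawater. It stood next by RPKM but took no more than 0.245% of the reads of a library. The fifth and the sixth, comp245191_c0_seq4 (2029 bases) and comp246943_c0_seq3 (1868 bases), came from different components and ran nearly in parallel. The first of them had 6696 and 5496 RPKM in fresh water, 5529 and 1018 in brackish water, and 987 and 2770 in seawater. The other had 6332 and 5553 RPKM in fresh water, 5528 and 996 in brackish water, and 1248 and 2572 in seawater. In both, fresh water lay above seawater without overlap, and the brackish water libraries lay apart, library 1 at the fresh water level and library 2 at the level of the lower seawater library.

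The seventh and the eighth were comp249721_c2_seq14 and comp249721_c2_seq3, further forms of the component of the second. Relative to comp249721_c2_seq6 they stood at 0.447 to 0.533 and at 0.445 to 0.527 times its RPKM over the 6 libraries, although the RPKM of that form spanned a range of 34.6 times. The 3 forms therefore repeat a single profile, and their reads may be divided among shared sequence. The component had 7 forms, and its reads came to 363814 and 107986 in fresh water, 1606442 and 5084247 in brackish water, and 738767 and 305112 in seawater. The ninth, comp243671_c2_seq9 (1509 bases), had 4215 and 3875 RPKM in fresh water, 1566 and 4254 in brackish water, and 964 and 4289 in seawater. The tenth, comp249717_c0_seq7 (4999 bases), had 2275 and 2196 RPKM in fresh water, 1834 and 3587 in brackish water, and 3012 and 6158 in seawater. In the ninth, seawater library 1 was the lowest of the 6, and in the tenth both seawater libraries lay above both fresh water libraries.

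Most members were abundant in every library. In all 6 libraries 29 members reached 1000 RPKM, 77 reached 500 and 89 reached 100. The number at or above 1000 RPKM was 69 and 65 in fresh water, 66 and 69 in brackish water, and 80 and 92 in seawater. Among the 100 highest transcripts of a library, 80 and 78 were members in fresh water, 77 and 71 in brackish water and 70 and 82 in seawater, and 34 members were among the 100 highest of all 6. The ratio of the highest to the lowest library, on RPKM + 1, had a median of 2.98. It was under 3 in 50 members and at least 10 in 20 members. For the 822 transcripts that averaged 100 to under 1000 RPKM the median was 4.25, with 27.7% under 3 and 26.6% at 10 or more.

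The steadiest member was comp232766_c0_seq2, with 1127 and 970 RPKM in fresh water, 845 and 812 in brackish water, and 1072 and 1218 in seawater, a range of 1.498 times. The member comp244497_c1_seq1 spanned 1.53 times, with 1424 and 1554 RPKM in fresh water, 1760 and 1314 in brackish water, and 1995 and 2007 in seawater. The member comp245948_c0_seq17 spanned 1.61 times, with 1622 and 1868 RPKM in fresh water, 1738 and 1653 in brackish water, and 2323 and 2615 in seawater. Fresh water and seawater overlapped in the first of the 3, and in the other two seawater was the higher by less than 2-fold.

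**Figure D2:**
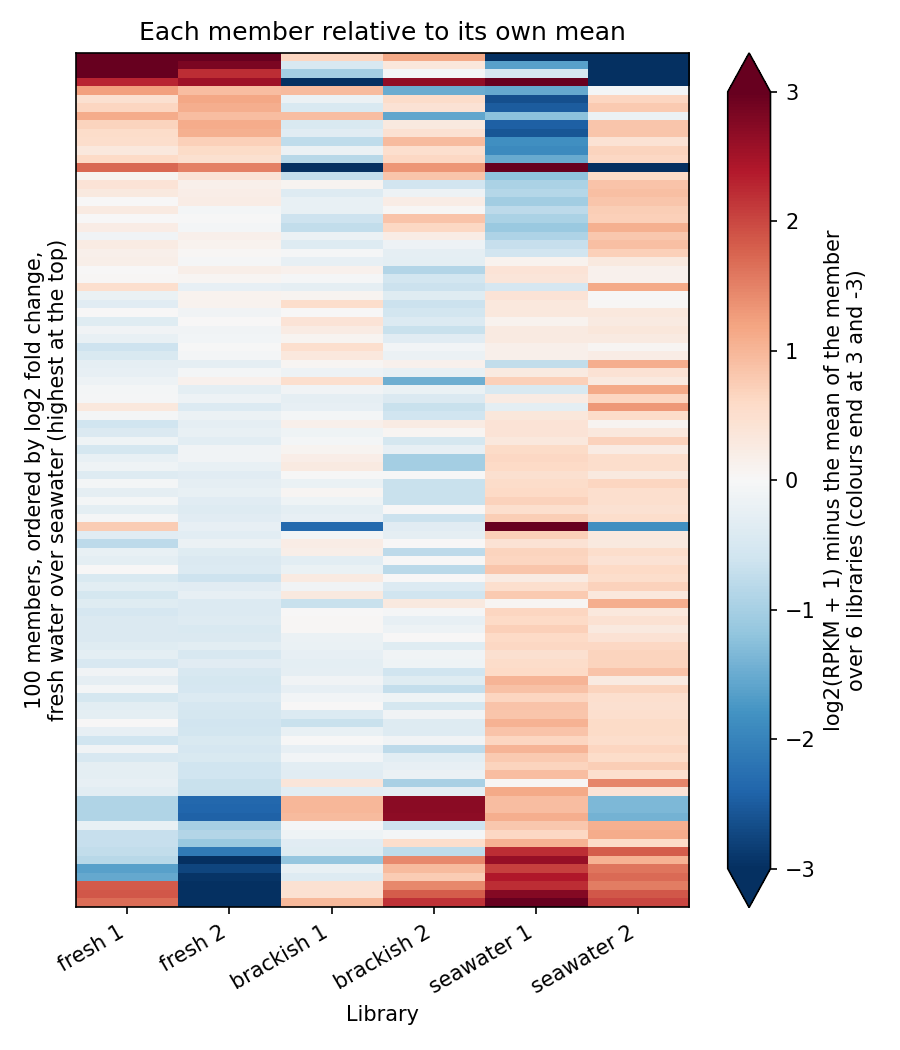
Colour gives log2(RPKM + 1) of each of the 100 members in each of the 6 libraries, minus the mean of that member over the libraries, with colours ending at 3 and -3. Rows are ordered by the log2 fold change of fresh water over seawater, and the wide pale band, with both seawater columns slightly red, holds most of the 63 members whose fresh water libraries lay below both seawater libraries.

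Fresh water was set against seawater to ask how the abundant messages differ between the extremes of culture salinity. This contrast did not enter the rule, which used the overall level and the brackish water values. A high mean can still be reached through 1 group, so the counts and the p-values of members are given as a description. All 25901 tested transcripts were fitted together with limma on log2(RPKM + 1), and a call is a Benjamini-Hochberg adjusted p under 0.05. Of the members, 5 rose and 10 fell in fresh water, 15 in all (limma), and 85 did not pass. At an unadjusted p under 0.05 there were 11 higher and 49 lower members, 60 in all, where 27.3% of all tested transcripts passed that limit. Over all tested transcripts 3.67% were called, 3.05% as higher and 0.625% as lower in fresh water. Among those of 100 to under 1000 RPKM 1.58% were called as higher and 5.96% as lower. The log2 fold changes of the 5 ran from 1.73 to 7.70 and those of the 10 from -6.58 to -1.05.

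The numbers called, of members and of all tested transcripts, changed with each library left out. Such fits leave 1 library in a group, and their ranges are given below with the processing. The 15 calls of members became 0 with limma on RPKM divided by TMM factors (38 members at an unadjusted p under 0.05). They became 0 with edgeR on the recovered reads (27), and both fits called 0 of all tested transcripts. With DESeq2 they became 50, 2 higher and 48 lower. DESeq2 called 7043 of the 25901 tested transcripts, 4013 as higher and 3030 as lower. Of the 15 members, 3 that rose and 2 that fell remained called without fresh water library 2.

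**Figure D3:**
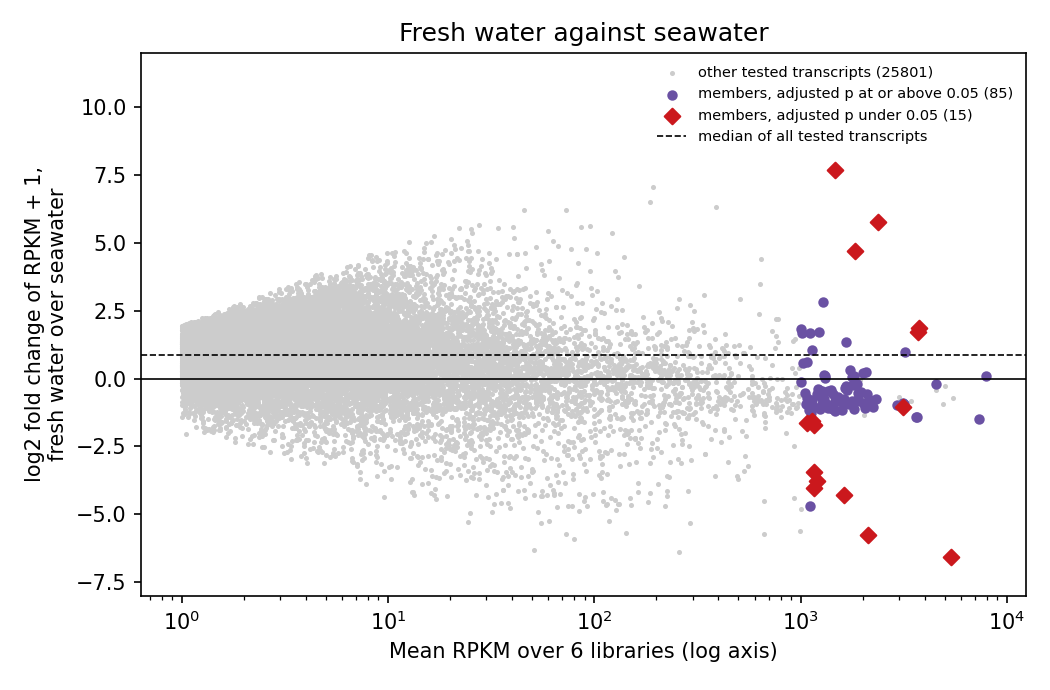
Log2 fold change of RPKM + 1, fresh water over seawater, against mean RPKM over the 6 libraries (log axis) for all 25901 tested transcripts. Members are purple, or red diamonds where the limma adjusted p was under 0.05 (15), and 76 members lie below the zero line, while the dashed median of all tested transcripts stands at 0.89.

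Called and uncalled together, the 100 members leaned to lower levels in fresh water. Their median log2 fold change was -0.76, against 0.89 over all tested transcripts and -0.18 over those of 100 to under 1000 RPKM. It was negative for 76 members, against 19.7% of all tested transcripts. In 63 members both fresh water libraries lay below both seawater libraries, where 11.5% of the tested transcripts did so and 38.7% of those of 100 to under 1000 RPKM. In 6 members both lay above, where 65.8% of the tested transcripts did so and 13.1% of those of 100 to under 1000 RPKM. The 63 were mostly small shifts, with a median log2 fold change of -0.95 and 38 of them under 2-fold, and 43 had a brackish water mean between the other two. The 63 took 10.5% and 7.20% of the reads in fresh water, 9.97% and 12.6% in brackish water, and 21.8% and 18.5% in seawater. In 18 members the order was fresh water, brackish water, seawater from low to high without overlap, where 1.97% of the tested transcripts and 10.9% of those of 100 to under 1000 RPKM had it. In 2 it was the reverse, where 2.51% of the tested transcripts and 0.973% of those of 100 to under 1000 RPKM had it.

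These directions depend in part on how the libraries are scaled. RPKM are relative to the total of a library, and the TMM factors, which set the libraries level on the bulk of the transcripts, were 1.55 and 1.87 in fresh water, 1.54 and 0.391 in brackish water, and 0.655 and 0.874 in seawater. With RPKM divided by these factors the median log2 fold change was -1.93 over the members and 0.08 over all tested transcripts, and 89 members were negative, 13 of them turned from higher to lower. Fresh water then lay below seawater without overlap in 82 members, where 31.7% of the tested transcripts did, and above it in 4, where 39.4% did. The stepped order from low in fresh water to high in seawater then held for 9 members, where 6.13% of the tested transcripts had it, and the reverse for 0, where 3.4% had it. With quantile normalization the median of the members was -0.10 and 54 were negative, so 22 members turned from lower to higher. The 15 called members kept their sign under both scalings.

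The largest rise was in comp243666_c4_seq4 (435 bases), with 3011 and 4495 RPKM in fresh water, 540 and 768 in brackish water, and 25.6 and 10.7 in seawater. It averaged 3753 ± 1050 RPKM in fresh water, 654 ± 161 in brackish water and 18.2 ± 10.6 in seawater (SD, n = 2 each, limma test across all transcripts). The groups did not overlap, and the level was stepped across the 3 salinities. In this form and in its companion form, only the fresh water mean was above 1000 RPKM. Both thus became members through fresh water, and the p-values of the forms and of their sum are a description. Fresh water exceeded seawater by 7.70 on the log2 scale, SE 0.60 (limma adjusted p = 2.94e-08; 1.10e-54 to 0.0699 over 18 alternatives, 4 of which ended the call). The companion form comp243666_c4_seq5 (1063 bases) had 6606 and 5761 RPKM in fresh water, 581 and 1034 in brackish water, and 260.0 and 47.2 in seawater. It too was stepped without overlap, and fresh water exceeded seawater by 5.78 on the log2 scale, SE 0.56 (limma adjusted p = 1.78e-06; 1.68e-59 to 0.179 over 18 alternatives, 6 of which ended the call).

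These were the only forms of their component, and their ratio was not constant. The shorter over the longer form stood at 0.456 and 0.780 in fresh water, 0.930 and 0.743 in brackish water, and 0.0986 and 0.226 in seawater, so the shorter form was less prominent in seawater. The shorter form had 184 and 154 reads in the seawater libraries, and the reads of the 2 forms may be divided unevenly. As a component they came to 9617 and 10257 RPKM in fresh water, 1121 and 1802 in brackish water, and 286 and 57.9 in seawater. Summed in this way the log2 fold change of fresh water over seawater was 6.26 (limma adjusted p = 1.29e-35, one of the 18 alternatives whose range is given for each form). With 3 residual degrees of freedom, a p-value this small rests almost wholly on the spread of other components, not of these libraries.

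The 2 largest called falls both rested on fresh water library 2. The next called falls by fold change, the forms comp246375_c3_seq2 and comp246375_c3_seq7, named after their values were seen, were low in both fresh water libraries. They had 291 and 110, and 217 and 98.1 RPKM there, against 4468 and 2760, and 2768 and 2037 in seawater. Fresh water minus seawater came to -4.29 and -4.01 on the log2 scale (limma adjusted p = 5.64e-05 and 2.34e-04). Their means were 200 and 158 RPKM in fresh water, 1037 and 936 in brackish water, and 3614 and 2402 in seawater. Both thus became members through seawater, and these p-values are a description. For comp250031_c0_seq12, whose values are given above, fresh water minus seawater came to -6.58 on the log2 scale, SE 1.66 (limma adjusted p = 0.0325). With fresh water library 2 left out it was -0.82 (limma adjusted p = 0.826; 3.13e-87 to 0.826 over 18 alternatives, 13 of which ended the call). The member comp248247_c3_seq15 (1292 bases) had 2440.7 and 0.567 RPKM in fresh water, 929 and 2379 in brackish water, and 4541 and 2441.5 in seawater. Fresh water library 1 and seawater library 2 were nearly equal, so the groups barely avoided overlap. Fresh water minus seawater came to -5.75 on the log2 scale, SE 1.56 (limma adjusted p = 0.0426), and to -0.45 with fresh water library 2 left out (limma adjusted p = 0.925; 1.03e-39 to 0.925 over 18 alternatives, 13 of which ended the call).

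Another member shared this profile, comp246399_c5_seq8 (1019 bases), which was singled out after its values were seen. It had 1567 and 1.44 RPKM in fresh water, 602 and 1190 in brackish water, and 2041 and 1270 in seawater. Fresh water minus seawater came to -4.70 on the log2 scale, a larger fall than those of the comp246375_c3 forms. Its fresh water and seawater libraries overlapped and it did not pass the test (limma adjusted p = 0.0547). In reads, the 3 members had 756921, 95081 and 48154 in fresh water library 1 and 76, 17 and 34 in fresh water library 2. The loss held for the whole component, with 79, 62 and 38 reads in fresh water library 2 over all forms. Outside fresh water library 2 the 3 ran roughly in parallel, with comp250031_c0_seq12 at 1.95 to 3.13 times comp248247_c3_seq15. Relative to comp246399_c5_seq8, comp250031_c0_seq12 stood at 3.04 to 5.87 times and comp248247_c3_seq15 at 1.54 to 2.23 times. Together they took 2.99% and 0.000548% of the reads in fresh water, 1.71% and 3.96% in brackish water, and 7.10% and 3.56% in seawater.

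Another pair of members was near 0 in 1 brackish water and 1 seawater library. The member comp239086_c0_seq9 (319 bases), chosen after its values were seen, had 1111 and 1325 RPKM in fresh water, 1.27 and 1443 in brackish water, and 3814 and 6.81 in seawater. The member comp246856_c0_seq1 (590 bases) had 383 and 331 RPKM in fresh water, 0.183 and 290 in brackish water, and 5430 and 8.90 in seawater. Both were near 0 in brackish water library 1 and seawater library 2, and high in seawater library 1. For comp239086_c0_seq9 the sum over all 6 forms of the component showed the same, 32 reads in brackish water library 1 and 147 in seawater library 2. For comp246856_c0_seq1 it did not, since another of the 12 forms, comp246856_c0_seq17, kept 4542 reads in brackish water library 1 and 6849 in seawater library 2. These 2 members and the 3 above were the only members under 10 RPKM in any library.

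**Figure D4:**
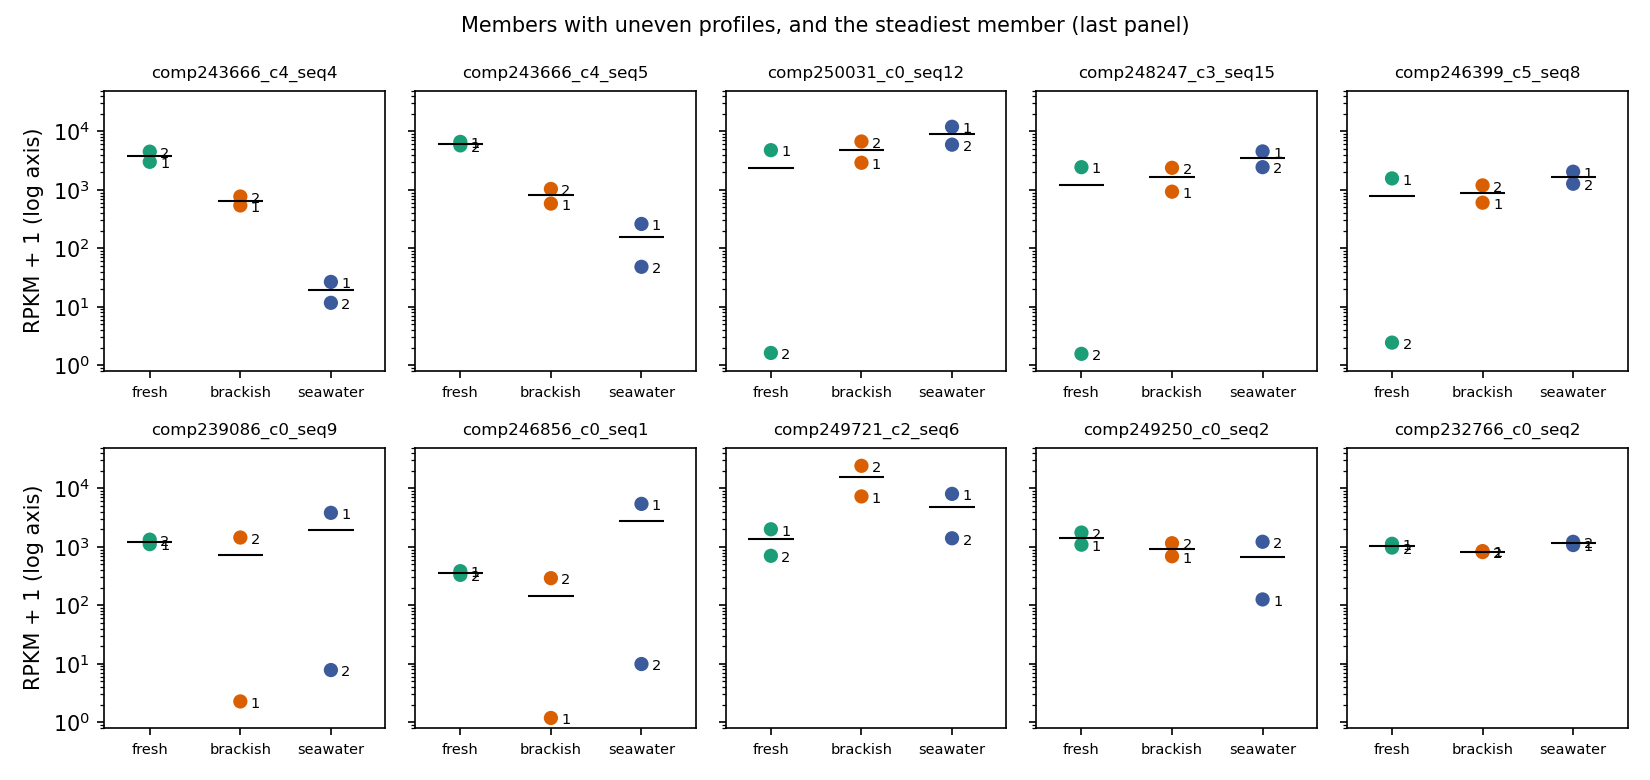
RPKM + 1 (log axis) of 10 members in fresh water, brackish water and seawater, with points for single libraries (numbered 1 and 2) and bars for the mean of the 2 libraries. The forms comp243666_c4_seq4 and comp243666_c4_seq5 stepped down from fresh water to seawater, the next 3 were near 0 in fresh water library 2 alone, the next 2 were near 0 in brackish water library 1 and seawater library 2, and comp232766_c0_seq2 was the steadiest.

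Single libraries lay apart from the rest in a few members, some of them described above. On RPKM + 1, a library lay at least 4 times below the next lowest in 9 members and at least 4 times above the next highest in 2. The low library was fresh water library 2 in 3 of the 9, seawater library 1 in 3, seawater library 2 in 2 and brackish water library 1 in 1. On RPKM without the added 1, a scale chosen after seeing the data, it was 11 members, with seawater library 1 low in 4 and brackish water library 1 in 2. Of the transcripts of 100 to under 1000 RPKM, 9.49% had such a low library on RPKM + 1, most often brackish water library 1, at 3.53%. Both lone high libraries were seawater library 1, and this was also the commonest lone high library among transcripts of 100 to under 1000 RPKM, at 4.99%. One of the 2 was comp246856_c0_seq1. The other was comp249085_c0_seq1 (290 bases), singled out for this value, with 789 and 391 RPKM in fresh water, 91.4 and 371 in brackish water, and 7428 and 130.0 in seawater.

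The 31 members whose fresh water and seawater libraries overlapped mostly had seawater libraries far apart, and a wide spread within seawater in part makes the overlap. In 26 of them the seawater libraries were at least 2-fold apart, as they were in all 6 members with fresh water above seawater and in 4 of the 63 with fresh water below. In 18 seawater library 1 was the lowest of the 6 libraries, and in 12 seawater library 2 was the highest as well. That order by itself makes fresh water and seawater overlap, so every member with it is among the 31. It was found in 12 of the 100 members and in 2.25% of the tested transcripts. A set of 4 members from different components, named after their values were seen, showed seawater library 1 alone at a low level, and was found by comparing 491 pairs of members that varied at least 4-fold. Within the set, the ratio of any member to any other varied by no more than 1.39 times over the 6 libraries. The member comp221984_c0_seq1 (273 bases) had 1513 and 2065 RPKM in fresh water, 703 and 1302 in brackish water, and 170 and 1652 in seawater. The member comp249250_c0_seq2 (2498 bases) had 1087 and 1755 RPKM in fresh water, 689 and 1152 in brackish water, and 125 and 1220 in seawater. In seawater comp249745_c0_seq5, at 146 and 1535 RPKM, and comp238587_c1_seq2, at 145 and 1426, lay between them. The only other pair as close was the parallel pair of comp245191_c0_seq4 and comp246943_c0_seq3, whose ratio varied by 1.36 times.

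**Figure D5:**
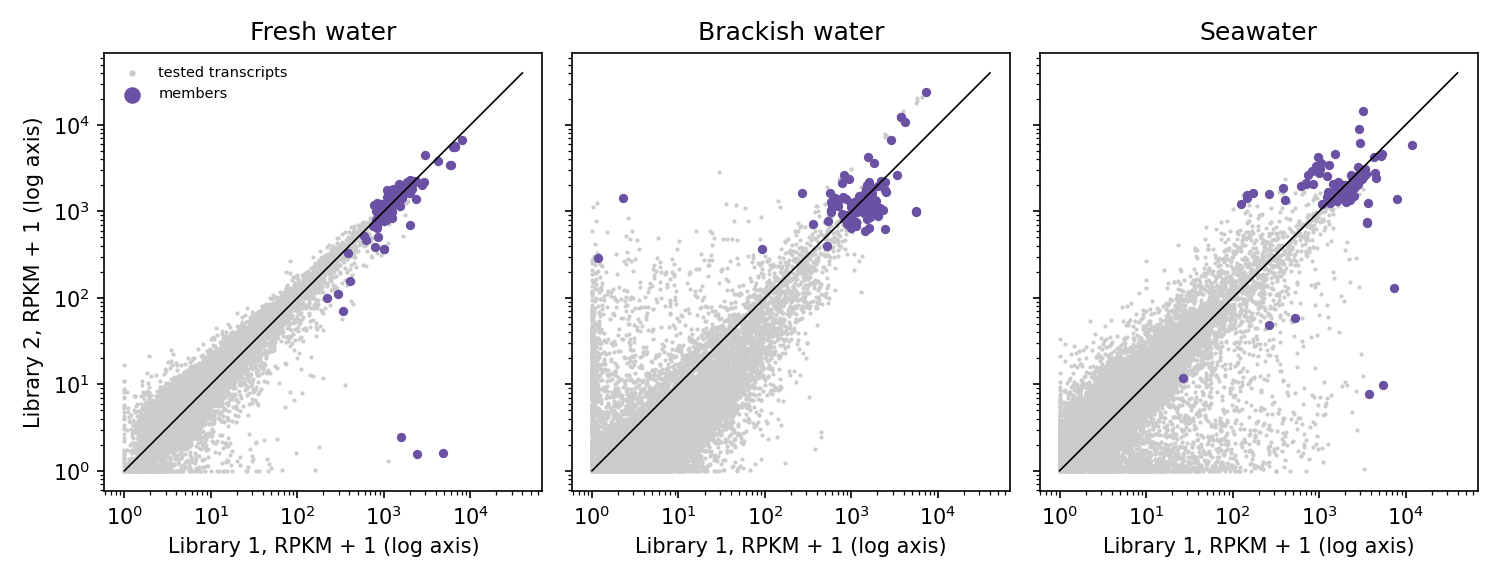
Library 2 against library 1 of fresh water, brackish water and seawater, RPKM + 1 on log axes, with the line of equality, for the members (purple) and all tested transcripts (grey). Within 2-fold of each other lay 89 members in fresh water, 76 in brackish water and 64 in seawater.

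Libraries of a group were closest in fresh water. The 2 libraries of a group differed by a median of 1.19-fold over the members in fresh water, 1.42-fold in brackish water and 1.33-fold in seawater. For transcripts of 100 to under 1000 RPKM the medians were 1.23-fold, 1.80-fold and 1.89-fold, and for those of 10 to under 100 RPKM they were 1.25-fold, 3.16-fold and 1.68-fold. In fresh water all 11 members that differed by 2-fold or more were higher in library 1. In brackish water 8 were higher in library 1 and 16 in library 2, and in seawater 11 were higher in library 1 and 25 in library 2. Of the 822 transcripts of 100 to under 1000 RPKM, 89 were so higher in fresh water library 1 and 0 in library 2. For these transcripts the numbers were 214 and 162 in brackish water, and 190 and 197 in seawater.

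Brackish water entered the rule, so its values are a description with no test. The log2 ratio of the brackish water mean over the seawater mean had a median of -0.65 over the members and was positive for 17 of them. Over all tested transcripts the median was 0.25. The log2 ratio of the fresh water mean over the brackish water mean had a median of -0.05 over the members and was positive for 47, and the median over all tested transcripts was 0.52. By these means 87 members were within 2-fold between fresh and brackish water, and 75 between brackish water and seawater.

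The authors' deposited table comparing seawater and fresh water lists only p-values under 0.05, and 32 of the members appear in it, 30 lower and 2 higher in fresh water. Of the 25901 tested transcripts, 26.5% appear in the authors' deposited table and 2.96% appear there as lower in fresh water. The authors' deposited table marks 13 members as significant, 11 lower and 2 higher, where 23.5% of the tested transcripts are marked in the authors' deposited table. Of the 15 members called here, 6 are among those that the authors' deposited table marks.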

How the data were processed

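Gill mRNA libraries were sequenced, 2 each from fresh water, brackish water and seawater culture, and were grouped by the treatment in the labels. The deposited values are, per the file headers, RPKM of each transcript and library, each group's mean read count (an estimated count), a log2 fold change of mean RPKM and an unadjusted p-value. The assembler, aligner and counter, not given in the sources used here, could not be checked. Every non-zero RPKM value (100%) times transcript length came to a whole number of reads, with a tolerance of 0.1 read, and these were taken as reads. Their group means equalled the mean counts of the authors' tables within 0.25 read.

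Transcripts averaging at least 1 RPKM (25901) entered a trended limma fit (version 3.58.1) of log2(RPKM + 1) over 6 libraries by group, without covariates, which leaves 3 residual degrees of freedom. Fold changes on that scale understate the change of low transcripts. To the 3 residual degrees of freedom limma added, in this main fit, a prior of 22.8 drawn from the tested transcripts. A member's own libraries therefore weigh little in its SE and p-value. The lowest adjusted p-values printed over the alternatives came from fits that left 1 library in a group, and they carry little weight. Benjamini-Hochberg adjustment ran over all 25901. The limma and edgeR steps were also run on simulated counts, as a check of the code alone. The simulated libraries did not differ in breadth or scaling as the real ones did. Alternatives were quantile normalization, TMM factors, other pseudocounts and filters, a replicate block, fresh water and seawater alone, sums per component, each library left out, and edgeR 4.0.16 and DESeq2 1.42.0 on the recovered reads. On those reads edgeR called 0 transcripts.

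Members were named by rule: the 10 highest means, the 2 largest called rises and 2 largest called falls without overlap, the 3 steadiest and 3 most uneven, those nearest each threshold, and the components with most members. Others are marked as chosen after their values were seen. The members and lists were chosen with earlier results of these data known. The table of all 3 groups was not used.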

Additional observations from a re-analysis of the deposited data

How the results depend on the processing

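The calls of fresh water against seawater, 15 members and 951 of all tested transcripts by limma, depended strongly on the processing. The number of members called was 0 in limma after quantile normalization, in limma on RPKM divided by TMM factors, in edgeR under TMM scaling, and in edgeR under size factors from DESeq2 (13, 38, 27 and 21 members at an unadjusted p under 0.05), and 0 transcripts were called in all by these 4 (7427, 8405, 8406 and 8538). It was 9 with a pseudocount of 0.1, 3 when all transcripts with a read were kept, 1 with a mean of at least 5 RPKM, 29 with fresh water and seawater alone and 50 with DESeq2. Over all tested transcripts the calls were 267 with a pseudocount of 10, 3 when all with a read were kept, 1 with a mean of at least 5 RPKM, 10368 with the compared groups alone, 2094 summed per component and 7043 with DESeq2. Leaving out 1 library gave 5 to 35 members and 12 to 10463 transcripts in all, where a lone library is assumed to vary like the others.

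With a replicate block 26 members and 531 transcripts were called. The numbers did not pair the libraries, since deviations of library 1 correlated at -0.41 between fresh and brackish water, 0.27 between fresh water and seawater and -0.46 between brackish water and seawater.

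The share of reads in the members was 10.01% in fresh water, 18.2% in brackish water and 15.7% in seawater with a threshold of 2000 RPKM, and 23.0% in fresh water, 43.5% in brackish water and 31.0% in seawater with the brackish-high transcripts kept. In both cases the mean of brackish water lay above that of seawater, against 26.9% and 29.3% as reported. As a share of summed RPKM it was 31.5% in seawater. Leaving out 1 library it ran from 18.4% to 24.9% in fresh water, 20.3% to 33.6% in brackish water and 28.3% to 30.4% in seawater. The 4 named rises and falls kept their sign in all 18 alternatives.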

Other observations

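Across the 100 members, which are not independent replicates, libraries of the same salinity were not always the most alike. The members were chosen on the mean of these same libraries, which can lower a correlation between them, so the values are a description. On log2(RPKM + 1), Pearson's r was 0.33 for the pair from fresh water, 0.42 for the pair from brackish water and 0.25 for the pair from seawater. The highest r of any pair of libraries, 0.75, joined brackish water library 1 and seawater library 2, in which comp239086_c0_seq9 and comp246856_c0_seq1 were both near 0. By ranks (Spearman's rho) the fresh water pair was the highest of all, at 0.748, and brackish water library 1 with seawater library 2 came to 0.533. The brackish water pair then stood at 0.369 and the seawater pair at 0.227. After the 8 members that varied at least 100-fold were set aside, r was 0.88 for fresh water, 0.51 for brackish water and 0.08 for seawater, and 0.51 for brackish water library 1 with seawater library 2. Set against fresh water libraries 1 and 2, brackish water library 1 then gave 0.65 and 0.55, seawater library 2 gave 0.57 and 0.49, and seawater library 1 gave -0.03 and -0.26.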
